A study of Mus musculus with 2 samples.

Results

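The regions described here are 149 Smad4 peaks in 6 windows of the mouse genome (build mm9) that carry the names of 4 BMP family ligand genes, Bmp2, Bmp4, Bmp7 and Gdf5, and of 2 BMP antagonist genes, Grem1 and Nog. A peak was assigned to a window when its midpoint lay inside it, and the 149 peaks are 0.164% of the 90984 peaks in the list. Smad4 chromatin immunoprecipitation (ChIP) was compared with input DNA, which is chromatin sequenced without the antibody step. There was 1 library of each, both from C57BL/6 mouse forelimb at embryonic days 12.5 and 13.5, with both ages given for each library and no genotype or treatment named. With 1 library per group no comparison below has a replicate check or a p-value. The submitters asked which genes Smad4 acts on directly during chondrocyte hypertrophy. The peak list holds no expression values, so the labelled tissue could not be checked against marker genes, and how deeply either library was sequenced is unknown.

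BMPs are secreted ligands of the TGF-β superfamily. They bind pairs of type I and type II receptor kinases, which phosphorylate Smad1, Smad5 and Smad9, and these proteins enter the nucleus together with the shared partner Smad4. Antagonists such as Gremlin and Noggin bind the ligands outside the cell and keep them from their receptors. In the limb this pathway acts in outgrowth, digit patterning, cartilage condensation, joint formation and chondrocyte maturation, and several of its ligands and antagonists are themselves known to respond to BMP signals.

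The RefSeq promoter table used here (GRCm38.p6) held upstream sequence for Bmp4, Grem1 and Fmn1, 3 of 7 genes looked up, the others being Bmp2, Bmp7, Gdf5 and Nog. The 250 bases before the transcription start of the ligand gene Bmp4 and of the antagonist gene Grem1 are shown because they hold different numbers of Smad-type elements. Capitals mark the Smad box GTCT, its extended form CAGAC and the GC-rich element GGCGCC, each searched on both strands. CAGAC contains the reverse strand of GTCT, so each CAGAC is also counted as a GTCT.

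Bmp4 promoter, chr14:46390670-46390919, minus strand: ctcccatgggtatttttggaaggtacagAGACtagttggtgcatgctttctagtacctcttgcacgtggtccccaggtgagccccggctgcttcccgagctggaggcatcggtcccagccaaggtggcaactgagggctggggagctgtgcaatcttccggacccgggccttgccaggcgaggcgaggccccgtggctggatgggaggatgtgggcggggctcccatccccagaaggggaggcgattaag
Grem1 promoter, chr2:113758649-113758898, minus strand: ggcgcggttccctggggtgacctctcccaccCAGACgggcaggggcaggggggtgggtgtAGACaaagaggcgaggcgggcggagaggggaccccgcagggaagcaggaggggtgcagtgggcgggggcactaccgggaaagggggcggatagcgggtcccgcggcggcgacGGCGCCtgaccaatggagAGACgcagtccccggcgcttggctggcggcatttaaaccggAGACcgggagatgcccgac

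The Grem1 sequence held 4 GTCT matches, 1 CAGAC and 1 GGCGCC, and the Bmp4 sequence held 1 GTCT and neither of the other elements. The 2 Fmn1 promoters, not shown, held 1 and 0 GTCT and neither of the other elements. Of 32851 promoters of the same length in the table, 82.9% held GTCT, 42.2% held CAGAC and 9.59% held GGCGCC. The number of matches per promoter was not counted over these, so 4 against 1 GTCT has no background. The peaks are in mm9 and these promoters in GRCm38.p6, so no peak was placed on them, and a match describes letters only.

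No distance from a peak to a gene is given, since mm9 gene positions were not used here. For the same reason it was not checked that each window contains the gene it is named for, and the GRCm38.p6 positions of the promoters above cannot be set against the mm9 windows. The windows are 600 to 1000 kb wide and may take in other genes. In the gene order of GRCm38.p6 the nearest protein-coding neighbours are Fermt1 and Hao1 for Bmp2, Ddhd1 and Cdkn3 for Bmp4, Tfap2c and Spo11 for Bmp7, Uqcc1 and Cep250 for Gdf5, and Fmn1 and Scg5 for Grem1. Nog has Ankfn1 on one side and the predicted gene Gm525 on the other. A peak in a window is therefore not assigned to the gene named.

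Smad4 peaks were present in every window, and every other window of the same width laid along these chromosomes also held at least 3. Most of the peaks in the 6 windows had a low deposited fold. The deposited fold enrichment had a median of 1.49 over the 149 peaks (quartiles 1.25 and 1.81), against 1.49 (quartiles 1.25 and 1.79) over all other peaks. The median peak held 16 tags in the windows and 16 elsewhere. A tag is one sequenced read placed in the peak, and 15 tags is the lowest number in the list. Peaks of exactly 15 tags made up 64 of the 149 (43.0%), against 33.8% of the other peaks. By window this share lay above the rest of the chromosome for Bmp2, Bmp4 and Nog and below it for Bmp7, Gdf5 and Grem1.

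Of the 149 peaks, 16 were enriched at least 2-fold (10.7%, exact binomial 95% interval 6.26 to 16.9%), against 14.3% of the whole list. One of the 149 (0.671%, 0.0170 to 3.68%) reached 3-fold, against 0.835% of the list, and 4 (2.68%) lay below 1-fold, against 4.41% of the list. The shares past 2-fold and 3-fold in the windows had intervals that contained the share of the whole list. The median peak length was 583 bp over the 149 peaks and 586 bp over the whole list. The 16 peaks of at least 2-fold were 517 to 814 bp long and held 15 to 45 tags. Their deposited FDR was 0.08 to 0.36%. All intervals here cover counting error only, because peaks are regions of 1 library and reads without molecular identifiers are not independent molecules.

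**Figure D1:**
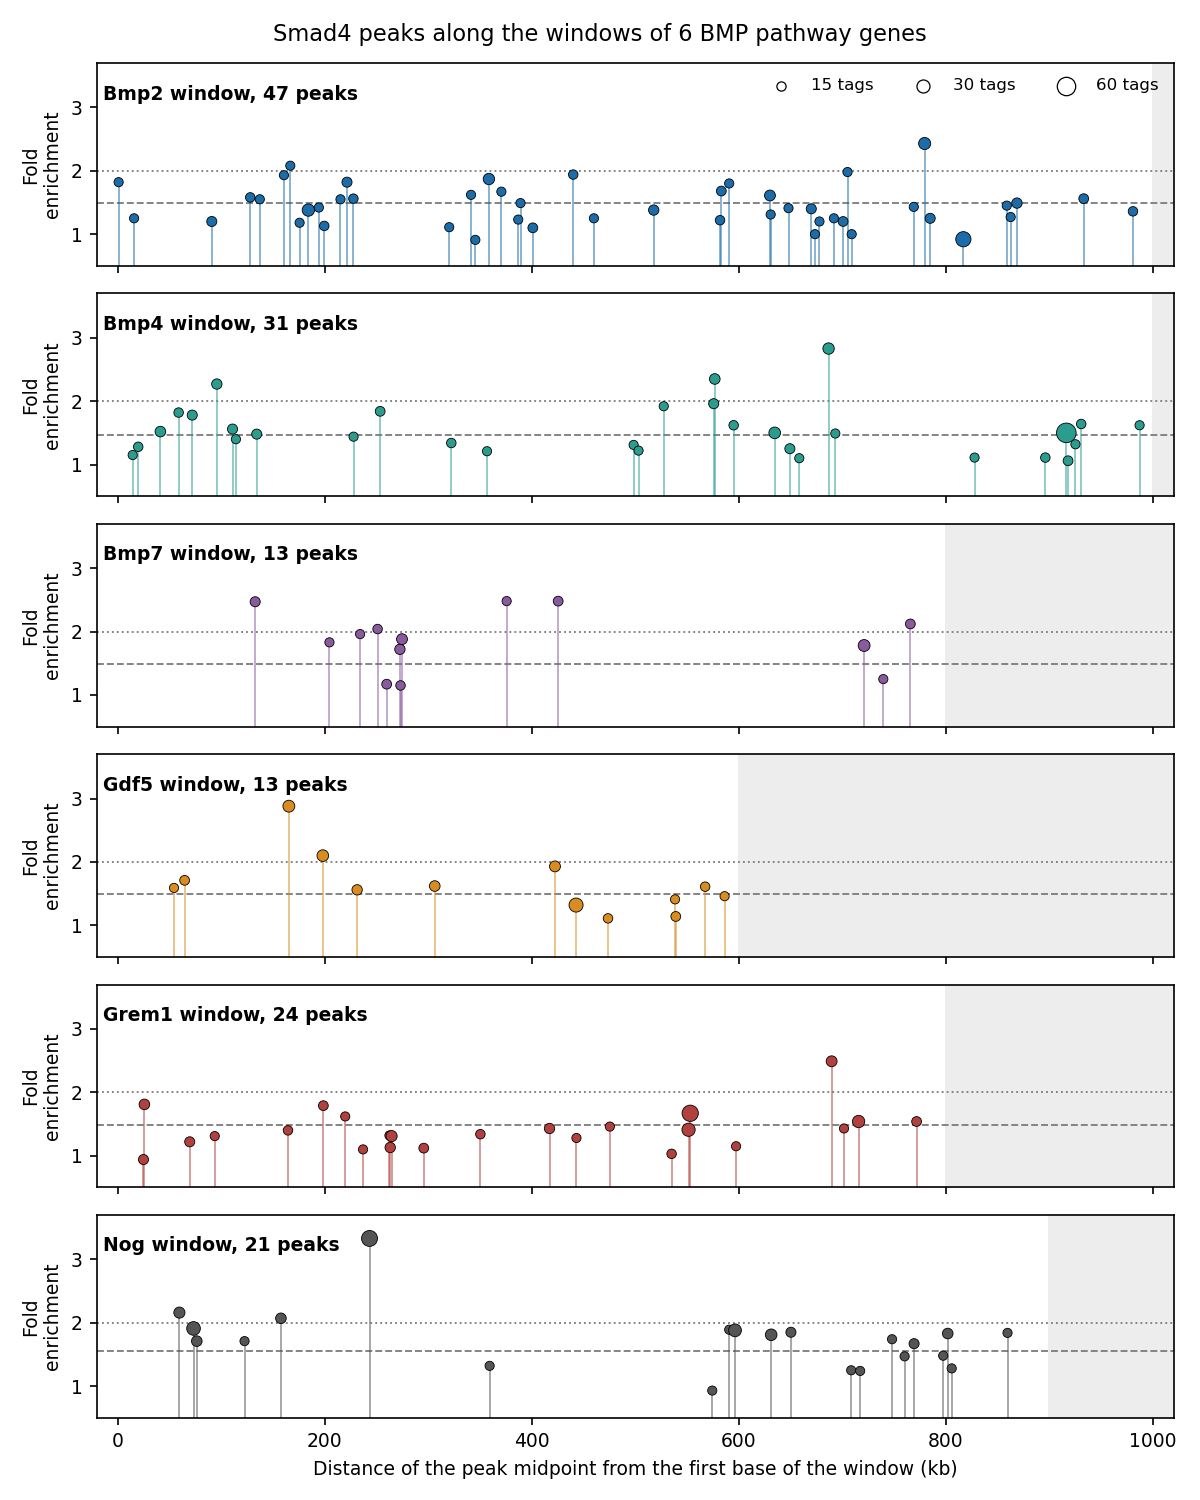
Position of each of the 149 peaks (midpoint, kb from the first base of its window) against deposited fold enrichment, with circle area proportional to tags; the dashed line is the median fold of the rest of the chromosome, the dotted line is 2-fold, and grey marks the space beyond the window's end. The Bmp2 window is filled with 47 peaks, mostly of low fold. The Bmp7 and Nog windows have long stretches without a peak, and the tallest peak is the 3.33-fold one in the Nog window.

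Fewer peaks were found in 5 of the 6 windows than the rest of their chromosomes would give for that width, and more in the window of Bmp2. Together the windows, 5.1 Mb in all, held 149 peaks where 180 would be expected, a ratio of 0.827 (exact Poisson 95% interval 0.699 to 0.971). Chromosome 14, which holds the Bmp4 window, has stretches with very many peaks. With 1 Mb windows of at least 100 peaks left out of the rest, the ratio was 0.875 (0.741 to 1.03), and the interval contained 1. The 4 ligand windows had a ratio of 0.824 (0.673 to 0.999), or 0.896 (0.732 to 1.09) without the dense windows, and joined opposite values, 1.40 for Bmp2 and 0.482 for Bmp7. The 2 antagonist windows had 0.832 (0.607 to 1.11) either way. These intervals treat peaks as independent, although peaks gather along chromosomes. Taken singly, the windows of Bmp2, Bmp4 and Bmp7 had intervals that did not contain 1, and those of Gdf5, Grem1 and Nog did not differ from their chromosomes beyond counting error. The spread of other windows of the same width is given below for that reason.

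**Figure D2:**
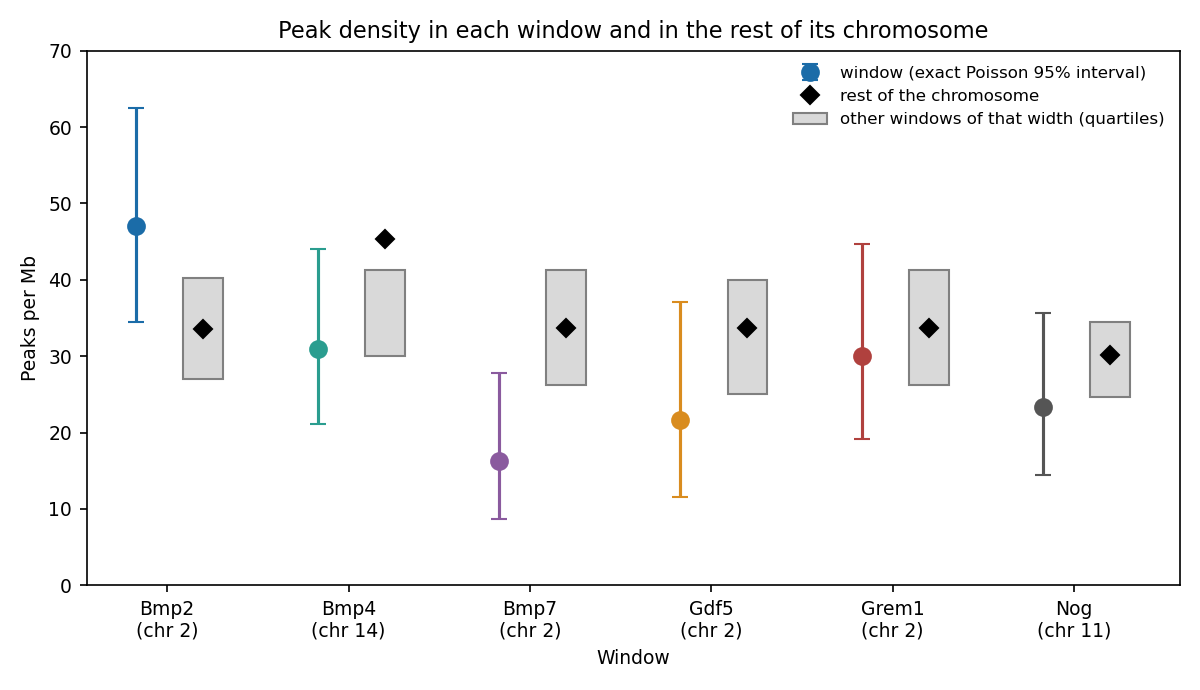
Peaks per Mb in each window (circles, bars are exact Poisson 95% intervals) beside the rest of its chromosome (diamonds) and the quartiles of other windows of that width on the chromosome (grey boxes). The Bmp2 window, at 47.0 peaks per Mb, lies above its box, the windows of Bmp7, Gdf5 and Nog lie below theirs, and the mean over the rest of chromosome 14 lies above its box.

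Among the ligands, Bmp2 encodes a BMP that promotes chondrocyte proliferation and maturation. Its window, chr2:132900001-133900000, held 47 peaks or 47.0 per Mb (34.5 to 62.5), against 33.6 per Mb in the rest of chromosome 2, a ratio of 1.40 (1.03 to 1.86). Of 176 other windows of 1 Mb on the chromosome, 13 held as many peaks or more. Peaks under 1.5-fold had 29 per Mb in the window, against 16.9 per Mb in the rest, and peaks from 1.5-fold to below 2-fold had 16 per Mb, against 11.7. Those of at least 2-fold had 2 per Mb (0.242 to 7.22), against 4.97, an interval that contained the value of the rest. Of the 176 other windows, 39 held as few such peaks or fewer.

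Peaks of exactly 15 tags made up 26 of the 47 in the Bmp2 window (55.3%), against 35.7% in the rest of the chromosome. Without them the ratio was 0.973 (0.602 to 1.49, 21 peaks), so the higher density was not seen among peaks of more than 15 tags. With an FDR of at most 1% the ratio was 1.27 (0.875 to 1.79). With the window narrowed by 100 kb on each side it was 1.56 (1.13 to 2.11). It was 1.45 (1.06 to 1.94) with close peaks merged and 1.40 (1.02 to 1.87) with folds of at least 1. Only 2 of the 47 peaks were enriched at least 2-fold (4.26%, 0.520 to 14.5%), against 14.7% of all peaks on chromosome 2. This was the one window of the 6 whose interval lay, narrowly, to one side of the share in the rest of its chromosome (14.8%).

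The strongest peak of the Bmp2 window lay at chr2:133679080-133679827. It held 26 tags (exact Poisson 95% interval 17 to 38.1), with a fold of 2.43 and a p score of 265. The p score puts the p-value of the peak caller on a negative log10 scale, multiplied by 10. It ranked 255 by fold and 172 by p score on a chromosome of 6015 peaks. The next by fold, at chr2:133066322-133066888 and chr2:133604656-133605248, each held 15 tags, with folds of 2.08 and 1.98. The peak with the most tags was of another kind: at chr2:133716190-133717494 it held 41 tags over 1305 bp, and its fold was 0.92, below 1. The peak caller still gave it a p score of 130 and an FDR of 0.17%. How a fold below 1 goes with these values is not known, since the computation of the fold is not stated.

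Bmp4 encodes a ligand active in limb mesenchyme and the apical ridge. The window chr14:46500001-47500000 held 31 peaks per Mb, against 45.4 in the rest of chromosome 14, a ratio of 0.683 (0.464 to 0.969). With the dense windows left out of the rest, the ratio was 0.877 (0.596 to 1.25), and the interval then contained 1. It also contained 1 with an FDR of at most 1% (0.461 to 1.05), with close peaks merged (0.495 to 1.06) and with folds of at least 1 (0.492 to 1.03). Other settings went the other way. The ratio fell to 0.551 with the window narrowed and to 0.593 among peaks of more than 15 tags, and neither interval contained 1. Of 120 other windows of 1 Mb, 38 held as few peaks or fewer, and their median was 35.

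Fold values in the Bmp4 window were near those around it, with a median of 1.49 (order-statistic 95% interval 1.31 to 1.62), against 1.46 in the rest. There were 3 peaks of at least 2-fold among 31 (9.68%, 2.04 to 25.8%), against 13.1% of all peaks on chromosome 14. The strongest was at chr14:47186228-47187041, with 23 tags (14.6 to 34.5) and a fold of 2.83, and ranked 55 by fold among 5532 peaks. A close pair lay within chr14:47075418-47076984, with 18 tags at 1.96-fold and 20 tags at 2.35-fold. The remaining one, at chr14:46595273-46595950, had 19 tags and a fold of 2.27. The most tags in any of the 6 windows, 68 (52.8 to 86.2), were in a 1980 bp peak at chr14:47415344-47417323, whose fold was 1.5.

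Bmp7 encodes a ligand made in limb ectoderm and mesenchyme and around cartilage condensations. Its window had the lowest peak density of the 6. In chr2:172300001-173100000 there were 13 peaks or 16.2 per Mb (8.65 to 27.8), against 33.7 per Mb in the rest of chromosome 2, a ratio of 0.482 (0.257 to 0.824). Of 221 other windows of 800 kb, 8 held as few or fewer. Some of these lay nearby, with 13 peaks 4 windows before the Bmp7 window, and 13 and 5 peaks 3 and 4 windows after it. Those directly beside it held more, 22 and 27. Peaks under 1.5-fold had 3.75 per Mb in the window, against 17.1 per Mb in the rest, and peaks from 1.5-fold to below 2-fold had 6.25 per Mb, against 11.7.

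At least 2-fold enrichment was reached by 5 of the 13 Bmp7 peaks (38.5%, 13.9 to 68.4%), against 14.7% of the chromosome. Per Mb this was 6.25 peaks (2.03 to 14.6), against 4.95 in the rest, a density whose interval contained that of the rest. The median fold was 1.88 (1.25 to 2.47), against 1.49, and both intervals contained the value of the rest. The 3 leading peaks had almost the same fold, 2.48 at chr2:172725090-172725688 with 17 tags, 2.48 at chr2:172675355-172675876 with 15 tags and 2.47 at chr2:172432410-172432926 with 18 tags. The remaining 2, at chr2:173065367-173065933 and chr2:172550657-172551188, had folds of 2.12 and 2.04. None of the 13 reached 3-fold. A high share past 2-fold was also seen in some nearby windows of 800 kb, picked after their values were seen. It was 11 of 20 peaks 6 windows before and 12 of 27 directly after. Others had lower shares, 5 of 22 directly before and 3 of 16 at 2 windows after.

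Along the Bmp7 window, 7 of the 13 peaks lay between 172500001 and 172600000. They included 3 neighbours within 2.70 kb at chr2:172572196-172574890, with folds between 1.15 and 1.88. After the peak at 172725090 no peak followed for 295 kb, up to 173020534, the longest stretch without a peak in the 6 windows. The most tags, 25 (16.2 to 36.9), were in the next peak, at chr2:173020535-173021390, with a fold of 1.78.

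Gdf5 encodes a growth and differentiation factor that marks the joint interzone, the strip of cells between forming skeletal elements. Its window chr2:155500001-156100000 was the narrowest, at 600 kb, and held 13 peaks or 21.7 per Mb (11.5 to 37.1), against 33.7 per Mb in the rest of chromosome 2. The ratio of 0.643 (0.342 to 1.10) had an interval that contained 1, and 46 of 296 other windows of that width held as few or fewer.

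The strongest Gdf5 peak, at chr2:155664834-155665586, held 25 tags (16.2 to 36.9). Its fold of 2.88 ranked 72 and its p score of 358 ranked 47 on chromosome 2. The next peak along the chromosome, at chr2:155697719-155698314, held 24 tags (15.4 to 35.7) at 2.10-fold and ranked 121 by p score. These were the 2 of 13 peaks past 2-fold (15.4%, 1.92 to 45.4%), close to the 14.7% of the chromosome. At chr2:155922012-155922617 a weaker peak had 21 tags and a fold of 1.93. Nearby, chr2:155942193-155943155 held the most tags, 35 (24.4 to 48.7), at 1.32-fold. The median fold was 1.59 (1.32 to 1.93), against 1.49 in the rest.

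Of the antagonists, Grem1 encodes Gremlin, which in the limb bud keeps BMP activity low between the polarizing region and the apical ridge. Limb control elements of Grem1 are known to lie in the adjoining Fmn1 gene, and the window was chosen to take in both genes. It held 24 peaks in chr2:113100001-113900000, 30 per Mb (19.2 to 44.6), against 33.7 per Mb in the rest, with a ratio of 0.891 (0.571 to 1.33). The median fold was 1.37 (1.22 to 1.54), against 1.49. Under 1.5-fold lay 17 of the 24 peaks (70.8%, 48.9 to 87.4%), against 50.4% in the rest. Both intervals contained the value of the rest.

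A single Grem1 peak passed 2-fold (4.17%, 0.105 to 21.1%), against 14.7% of the chromosome. It lay at chr2:113789319-113789842, with 21 tags (13 to 32.1), a fold of 2.49 and a p score of 198, and followed the longest stretch without a peak in the window, 91.7 kb. The highest p score, 263, belonged to the second of 2 neighbouring tag-rich peaks. They lay at chr2:113650880-113651824, with 31 tags at 1.41-fold, and at chr2:113652203-113653705, with 47 tags (34.5 to 62.5) at 1.67-fold. The next folds were 1.81 at chr2:113125303-113125949 and 1.79 at chr2:113298298-113298770.

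Nog encodes Noggin, which binds several BMPs and is needed for joints to form. Its window contained the strongest of the 149 peaks by fold. At chr11:88942770-88943510 this peak held 45 tags (32.8 to 60.2) and had a fold of 3.33, a p score of 480 and an FDR of 0.36%. It ranked 18 by fold and 4 by p score among the 3574 peaks of chromosome 11, and 325 by fold in the whole list. The Nog window was also the one of the 6 in which a single peak led by fold, by p score and by tags.

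The Nog window, chr11:88700001-89600000, held 21 peaks or 23.3 per Mb (14.4 to 35.7), against 30.2 in the rest of chromosome 11, a ratio of 0.774 (0.479 to 1.18). There were 3 peaks of at least 2-fold (14.3%, 3.05 to 36.3%), against 18.9% of the chromosome. The other 2 had folds of 2.16 at chr11:88759101-88759777, with 22 tags, and 2.07 at chr11:88857248-88857814, with 20 tags. All 3 lay in the first part of the window, up to 88943510. Beside them chr11:88772630-88773582 held 33 tags at 1.91-fold.

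From 89059453 to 89274023 the Nog window had no peak over 215 kb, and the 14 peaks after that stretch had folds of 0.93 to 1.89. The median fold of the window was 1.74 (1.47 to 1.88), against 1.55 in the rest. Peaks of exactly 15 tags were 11 of the 21 (52.4%), against 36.9%.

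**Figure D3:**
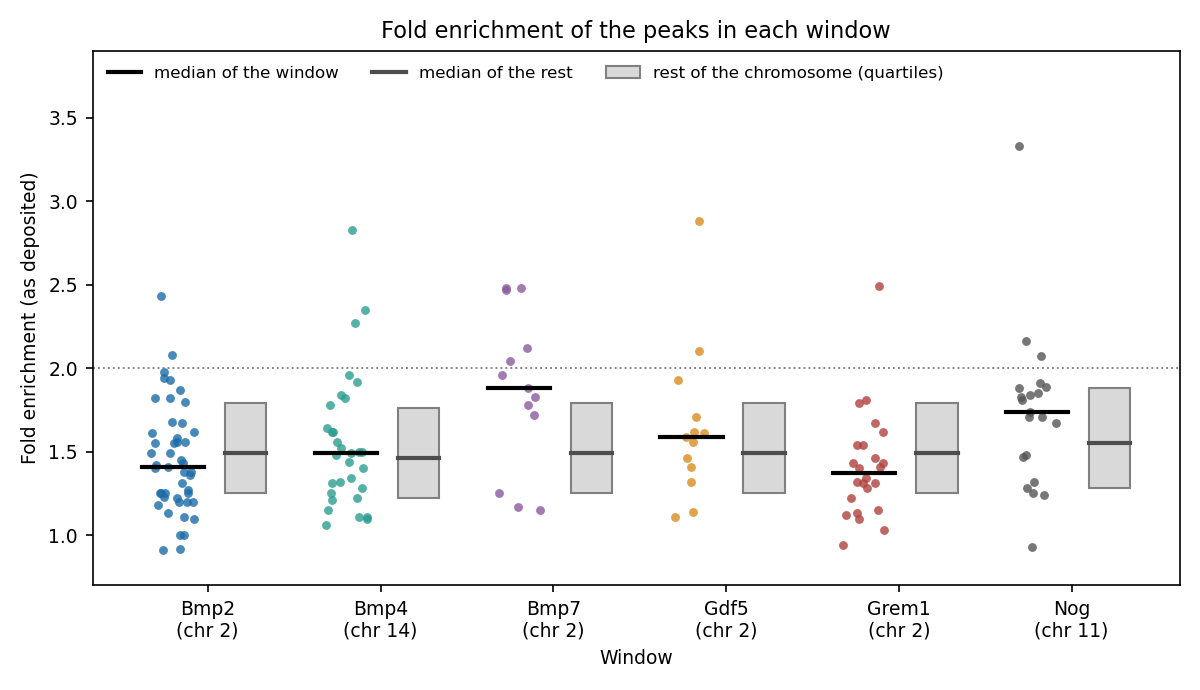
Deposited fold enrichment of every peak in each window (points, black line at the median) beside the quartiles (grey box) and median (grey line) of the rest of its chromosome; the dotted line is 2-fold. Window medians run from 1.37 for Grem1 to 1.88 for Bmp7, and each window has 1 to 5 peaks at or above 2-fold.

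Medians of fold thus lay above the rest of the chromosome for Bmp7, Nog, Gdf5 and Bmp4 and below it for Bmp2 and Grem1. In all 6 windows the order-statistic interval of the median contained the median of the rest, so none of these differences exceeded the imprecision of the window's median. That interval also treats peaks as independent. By median fold the order was Bmp7 (1.88), Nog (1.74), Gdf5 (1.59), Bmp4 (1.49), Bmp2 (1.41) and Grem1 (1.37), and the intervals of neighbours in this order overlapped. By density it was Bmp2, Bmp4, Grem1, Nog, Gdf5 and Bmp7. The intervals of Bmp2 and Bmp7 did not overlap, at 34.5 to 62.5 and 8.65 to 27.8 peaks per Mb, and those of neighbours in the order did.

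Tags and fold picked out different peaks. The peak with the highest fold had the most tags in 1 of the 6 windows, that of Nog, and the highest p score in 3, those of Bmp2, Gdf5 and Nog. The 64 peaks of 15 tags in the windows had a median fold of 1.41, against 1.40 for such peaks elsewhere in the list. For the 61 peaks of 16 to 20 tags it was 1.56, against 1.5 elsewhere. The 17 peaks of 21 to 30 tags reached 1.88, against 1.71 elsewhere. Above 30 tags there were 7 peaks with a median of 1.5, against 1.48 elsewhere. Peaks of exactly 15 tags had folds from 0.91, in the window of Bmp2, to 2.48, in that of Bmp7.

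**Figure D4:**
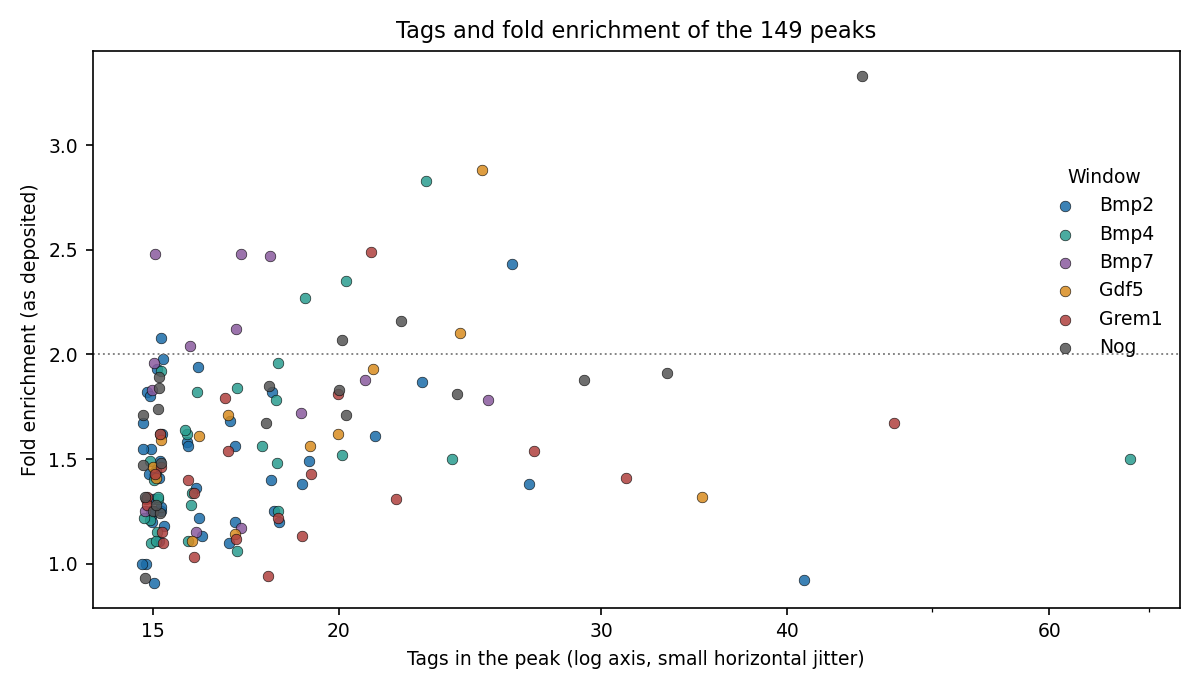
Tags per peak (log axis) against deposited fold enrichment for the 149 peaks, coloured by window; the dotted line is 2-fold. The Nog peak with 45 tags is high on both axes, while the Bmp4 peak with 68 tags and the Bmp2 peak with 41 tags have folds of 1.5 and 0.92.

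Within the windows peaks also lay in short runs. Of 143 gaps between neighbouring peaks, 27 (18.9%) were under 5 kb. They joined 49 peaks into 22 runs, 17 of 2 peaks and 5 of 3. On whole chromosomes such gaps were 21.9% on chromosome 2, 20.2% on chromosome 11 and 37.1% on chromosome 14, where the Bmp4 window had 16.7%. Of the 16 peaks of at least 2-fold, 2 were in a run, 1 each in the windows of Bmp2 and Bmp4, against 49 of all 149 peaks. How often such peaks lie in runs over the whole list was not counted, so nothing is read from this. In bins of 100 kb, 5 of 51 held no peak, 3 of them in the window of Bmp7.

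The 12 peaks nearest to a window border on the inside had folds of 0.94 to 2.47 and the 12 nearest on the outside 1.02 to 2.41. At least 2-fold was reached by 3 of the inside peaks and 1 of the outside peaks, against 14.3% of the whole list. With 12 peaks on each side these counts are too small to tell the sides apart. The closest to a border were at Bmp2, where the midpoint of an inside peak of 15 tags and 1.82-fold lay 0.739 kb from it and that of an outside peak of 17 tags and 1.02-fold 0.697 kb from it.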

How the data were processed

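Smad4 ChIP and input DNA of mouse forelimb were sequenced, 1 library each. The submitters' processing notes name BWA, SICER, MACS and mm9, without settings. The list of peaks was used as deposited. Per the file headers the authors deposited tag counts per peak, a p score (10 times the negative log10 of the p-value), a fold enrichment and an FDR in percent. The background of the fold enrichment and any transform of it are not stated. Limits such as 2-fold therefore refer to the deposited value, which may not be a plain ratio to background. Windows came from a fixed rule, and the members and lists were chosen with earlier results of these data known. In each window the 3 peaks of highest fold, those of highest p score and most tags, and any of at least 3-fold were named, other peaks being chosen after their values were seen. Density outside a window is per Mb of the chromosome between its first and last peak, window excluded. For 4 windows on chromosome 2 the rest includes the other 3. Counts have exact Poisson, shares exact binomial (Clopper-Pearson) and medians order-statistic 95% intervals. No test was made. The planned counts of pathway genes and motifs in peaks were not run, since no mm9 annotation or sequence was used here. The density procedure was tested on simulated peaks placed at random and independently. Real peaks gather along chromosomes, so that run does not show how the intervals behave on them. Calculations used scipy 1.17.1, pandas 2.3.3 and numpy 2.4.6 under Python 3.11.15, and figures matplotlib 3.10.9.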

Additional observations from a re-analysis of the deposited data

How the results depend on the processing

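Settings tried were FDR at most 1%, assignment by summit, windows narrowed by 100 kb on each side, the rest without dense windows, peaks under 1 kb apart merged, more than 15 tags, other fold limits and other rankings. Density ratios stayed on their side of 1 except for Bmp2, which turned to 0.973 among peaks of more than 15 tags. The share of Bmp7 peaks past the limit, 23.8 percentage points above the rest at 2-fold, was -0.916 points at 3-fold, where the window has no peak. That of Grem1, -10.6 points at 2-fold, was -20.4 points at 1.5-fold. Other shares changed direction. At Nog the share went from -4.66 points to 6.27 (more than 15 tags), 3.41 (3-fold) and 11.9 (1.5-fold). At Bmp4 it went from -3.41 to 0.551 (more than 15 tags) and 1.29 (1.5-fold). At Gdf5 it went from 0.673 to -2.34 (FDR at most 1%) and -0.916 (3-fold), and was 13.9 in the narrowed window. All these values lay inside the interval of the 2-fold share at the main setting, but other fold limits are another measure. No interval was computed for these shares under the other settings. The pooled ratio without dense windows was added after seeing the data. Ranked by p score the leading peak changed to one of 1.5-fold at Bmp4, 2.47 at Bmp7 and 1.67 at Grem1, and ranked by tags to 0.92 at Bmp2, 1.5 at Bmp4, 1.78 at Bmp7, 1.32 at Gdf5 and 1.67 at Grem1. The difference in median fold kept within its interval throughout, 0.33 to 0.46 at Bmp7 and -0.07 to 0.06 at Bmp4. For the changes not set by the limit itself, the cause was not tested. No paired analysis was possible because there was a single library of each kind. Library depth is unknown, and windows of 13 peaks leave wide intervals.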

Other observations

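Stretches as wide as each window and directly beside it were looked at after the values were seen. After the Bmp7 window, 27 peaks had a median fold of 1.78 and 12 of them reached 2-fold, against 5 of 13 in the window. After the Gdf5 window, 10 peaks had a median fold of 2.37 and 6 reached 2-fold, against 2 of 13 in the window. Before the Nog window, 24 peaks had a median fold of 1.86 and 11 reached 2-fold, against 3 of 21 in the window. After the Bmp2 window none of 33 peaks reached 2-fold, against 2 of 47 in it. Over whole chromosomes 14.7% of peaks on chromosome 2 and 18.9% on chromosome 11 did. These stretches were picked from 12 for their values, and no test was made.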
